A study of Homo sapiens with 4 samples.

Results

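The genes described here are 10 that make or regulate the machinery of MHC class I antigen processing: B2M, TAP1, TAP2, TAPBP, PSMB8, PSMB9, PSMB10, NLRC5, ERAP1 and ERAP2. They were chosen by name, and every probe set annotated to only 1 of these symbols was taken, which gave 25 of the 54675 probe sets on the arrays. Transcript levels were measured in HCT116, a long-established human cell line from a colorectal adenocarcinoma, on 4 one-colour Affymetrix arrays. The groups were HCT116 with shRNA #1 targeting KSR1 (shKSR1 #1), HCT116 with shRNA #2 targeting KSR1 (shKSR1 #2), HCT116 with a non-targeting shRNA vector (shCTRL) and untransfected HCT116, with 1 array each. Per the labels, hairpin vectors were introduced by lipofection and clones were selected with puromycin, so that vector, transfection, selection and clone all separate the hairpin lines from untransfected cells. The labels do not say whether an array came from 1 clone or a pool. KSR1 is a scaffold protein that brings the RAF, MEK and ERK kinases together. With 1 array per group, a difference between 2 arrays has no replicate check.

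MHC class I molecules show short peptides from inside the cell to CD8+ T cells. In the textbook pathway, proteasomes cut cytosolic proteins, the TAP transporter carries the peptides into the endoplasmic reticulum, aminopeptidases trim them there, and a loading complex places them on a heavy chain paired with beta-2-microglobulin. Interferons raise the transcription of most of these genes, through elements in their promoters that bind IRF factors and through the coactivator NLRC5, and tumours can lose parts of the pathway.

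The promoters of most of these genes share a short element. It was the only element searched for, and the textbook account above already places such elements in these promoters. Its presence is therefore a description and not an independent result. RefSeq promoter windows (build GRCh38.p14, from 250 bases before to 50 after a gene's start) were at hand for 9 of the 10 genes. A core sequence bound by IRF-family factors, GAAANNGAA read on either strand, lay in a window of 8 of these 9, all but PSMB9, against 9.86% of all 27305 genes with a window. Some genes have more than 1 window, and a match was counted if any window held it. The stretches below are shown because they carry this core, in capitals, with 10 bases on either side, each written 5′ to 3′ along its gene's own strand. Where the core reads on the opposite strand, the capitals are its reverse complement.
B2M (chr15:44711369-44711397, plus strand): ctaagaaaagGAAACTGAAaacgggaaag
TAP1 (chr6:32853813-32853841, minus strand): cgctttcgatTTCGCTTTCccctaaatgg
TAP2 (chr6:32838779-32838807, minus strand): ctggggaagcGAAAGCGAAagctgcccga
TAPBP (chr6:33314074-33314102, minus strand): ggaggaaagtGAAAGTGAAaggaggaaga
PSMB8 (chr6:32844032-32844060, minus strand): atctgtggctTTCGCTTTCacttcctcct
PSMB10 (chr16:67936853-67936881, minus strand): gggtaaaggcGAAAGCGAAagcaggaagt
ERAP1 (chr5:96807924-96807952, minus strand): gggctccactTTCACTTTCggtcctgggg
ERAP2 (chr5:96876460-96876488, plus strand): tcttagaacaGAAAGTGAAagcaaaagta

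B2M, TAP1 and TAPBP each held a second match of this core that overlaps the one shown. TAP1 and PSMB9 are neighbours read in opposite directions, and the upstream TAP1 start lies 488 bases from the PSMB9 start, so the TAP1 core shown above lies between them. A match of letters is a description of the sequence and not evidence of binding.

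Most of the 10 genes gave a signal bright enough to analyse. Values are the deposited linear intensities, and differences are on a scale of log2(intensity + 16), which understates differences of dim probe sets. A gene is represented by its probe set with the highest mean over the 4 arrays and was analysed where that mean reached log2 6.08, the median of all probe sets. By this rule 8 of the 10 genes were analysed, among 12468 of 19775 genes in all, and 12 of the 25 probe sets lay above the same value. NLRC5, with a mean log2 value of 6.11, passed narrowly and only through its signal with shKSR1 #2. ERAP2 at 5.86 and PSMB8 at 5.30 did not pass. Brightness depends on the probes as well as the transcript, so levels are compared between arrays and not between genes.

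Array quality and cell identity were checked once. The median intensities of the 4 arrays lay between 50.7 and 52.0. Of 8 epithelial markers 7 were analysed. EPCAM, KRT8, KRT18, KRT19 and CDH1 were bright, VIL1 and CDX2 were dim, and LGALS4 was under the filter. EPCAM was at 8119 and 7985 with shKSR1 #1 and #2, 7917 with shCTRL and 7855 in untransfected cells. KRT8 was at 5683 and 8309 with shKSR1 #1 and #2, 6080 with shCTRL and 6389 in untransfected cells, so the single hairpin arrays differed in it. The leukocyte marker PTPRC lay at 16.8 and 15.5 with shKSR1 #1 and #2, 17.4 with shCTRL and 16.5 in untransfected cells. Of 10 leukocyte markers measured 1 was analysed, and their summed intensity was 289 with shKSR1 #1, 329 with shKSR1 #2, 335 with shCTRL and 318 in untransfected cells. The analysed marker was LAPTM5, between 64.8 with shKSR1 #1 and 74.5 with shCTRL. Of 8 fibroblast markers COL1A1, THY1 and DCN were above the filter, COL1A1 between 372 with shKSR1 #1 and 433 in untransfected cells. Of 4 endothelial markers PECAM1 was above it. KSR1 itself, on its brightest probe set, was at 141 with shKSR1 #1 and 171 with shKSR1 #2, against 211 with shCTRL and 209 in untransfected cells. Its difference between both hairpin arrays and both others was -0.40 (SE 0.12, limma adjusted p = 0.67). On its other 3 probe sets, all below the filter, the sides overlapped, with differences of -0.16, 0.02 and -0.04.

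**Figure D1:**
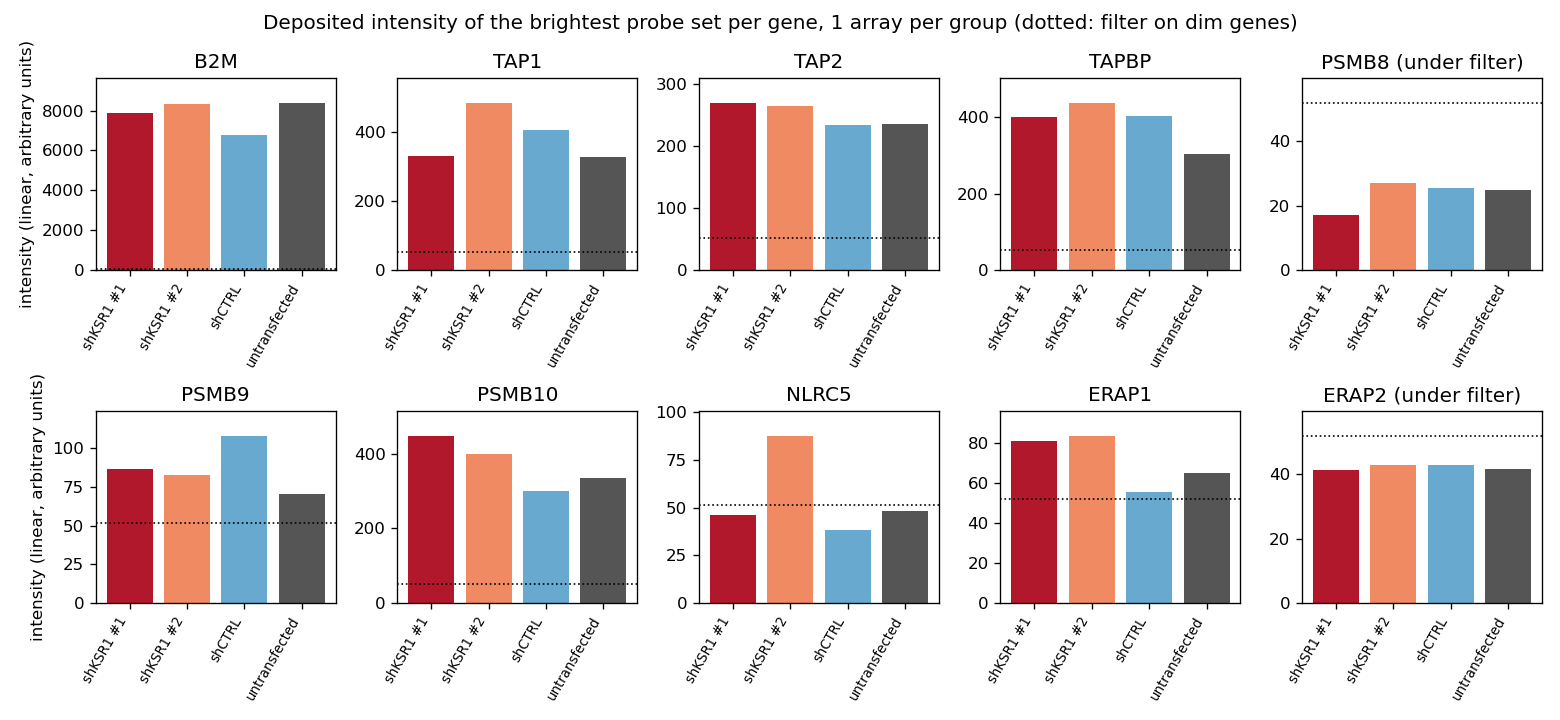
Deposited linear intensity (arbitrary units, axes from 0) of the brightest probe set of each of the 10 genes, with 1 bar for each array and a dotted line at the intensity of 51.7 that matches the filter. Both KSR1 hairpin bars stand above both others for TAP2, PSMB10 and ERAP1, and NLRC5 stands out with shKSR1 #2 at 87.4.

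The comparison of both KSR1 hairpin arrays with both others asked how these genes differ when KSR1 is targeted. TAP2, PSMB10 and ERAP1 were the analysed genes with both hairpin arrays above both the shCTRL and the untransfected array, by 1.13-fold to 1.31-fold on the means. None lay below both. Thus 3 of 8 separated upward and 0 downward, against 22.5% upward and 18.4% downward among all genes analysed. The median difference over the 8 genes was 0.21 log2 units, and over all genes analysed it was 0.017. Without NLRC5, which passed the filter through shKSR1 #2, it was 0.17 over 7 genes. By limma's moderated test on the 4 arrays, with Benjamini-Hochberg adjustment over all genes, 0 of the 8 passed at an adjusted p under 0.05, and 0% of all genes passed (882 genes, or 7.07%, had an unadjusted p under 0.05, among them PSMB10 and ERAP1). The test takes the spread between hairpins and between the lines without a KSR1 hairpin as its error, with 2 residual degrees of freedom.

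PSMB10 encodes the immunoproteasome's beta2i subunit, which replaces PSMB7 of the standard proteasome. Its intensity was 446 with shKSR1 #1 and 399 with shKSR1 #2, against 301 with shCTRL and 335 in untransfected cells. Both hairpin arrays were the higher ones and the groups did not overlap. On the log2 scale the hairpin arrays were 0.39 higher (SE 0.11, adjusted p = 0.67), or 1.31-fold. The single probe set of this gene leaves no second reading of it. PSMB10 was 0.55 above shCTRL with shKSR1 #1 and 0.39 above it with shKSR1 #2, while shCTRL was 0.15 below untransfected cells.

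The other immunoproteasome subunits did not share this order. PSMB9, or beta1i, had intensities of 87.0 and 82.5 with shKSR1 #1 and #2, 108 with shCTRL and 70.4 in untransfected cells. Both hairpin arrays thus lay between the others, and the mean difference was -0.04 (SE 0.19, adjusted p = 0.96). The larger step for PSMB9 was between the lines without a KSR1 hairpin, 0.52 log2 units higher in shCTRL than in untransfected cells. PSMB8, or beta5i, was dim throughout, at 17.1 and 27.0 with shKSR1 #1 and #2, 25.3 with shCTRL and 24.8 in untransfected cells, below the median intensity of every array. No detection calls were used, so such values are not told apart from background.

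The TAP transporter is a dimer of TAP1 and TAP2, and its subunits differed in pattern. TAP2 had intensities of 268 and 263 with shKSR1 #1 and #2, against 234 with shCTRL and 235 in untransfected cells. The arrays within each side lay close together and the sides did not overlap, with a log2 difference of 0.17 (SE 0.09, adjusted p = 0.67), or 1.13-fold. The other TAP2 probe sets above the filter, a brighter and a dimmer one, kept this separation, at 170 and 159 against 125 and 147, and at 71.0 and 67.6 against 62.3 and 64.7, each given as shKSR1 #1 and #2 against shCTRL and untransfected cells. The fourth was dim, between 14.4 and 16.8, and the sides overlapped. TAP1 was at 331 with shKSR1 #1 and 482 with shKSR1 #2, against 406 with shCTRL and 328 in untransfected cells. It was low with shKSR1 #1 and in untransfected cells and high with shKSR1 #2 and shCTRL, so the sides overlapped (difference 0.13, SE 0.22, adjusted p = 0.89).

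TAPBP encodes tapasin, which bridges TAP and the class I molecule during loading. It was at 400 with shKSR1 #1 and 435 with shKSR1 #2, against 402 with shCTRL and 303 in untransfected cells. Untransfected cells stood low, while shKSR1 #1 and shCTRL were within 0.01 log2 units of each other. The difference of hairpin arrays and others was 0.25 (SE 0.16, adjusted p = 0.70). A dimmer TAPBP probe set above the filter gave -0.01, with values from 82.7 to 96.7 over the arrays.

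B2M encodes beta-2-microglobulin, the light chain of every class I molecule. Its intensity was 7884 with shKSR1 #1 and 8305 with shKSR1 #2, against 6778 with shCTRL and 8355 in untransfected cells. The shCTRL array was the low one and the remaining arrays lay close together, and the hairpin difference was 0.10 (SE 0.14, adjusted p = 0.84). The second bright B2M probe set had the same order of arrays, at 4237 and 4488 with shKSR1 #1 and #2, 3933 with shCTRL and 4427 in untransfected cells, apart from shKSR1 #2, which was highest there. In log2 units B2M was 0.30 lower in shCTRL than in untransfected cells. The 500 other genes nearest in brightness had an SD of 0.21 for that difference.

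ERAP1 and ERAP2 trim peptides in the endoplasmic reticulum. ERAP1 was at 81.0 with shKSR1 #1 and 83.1 with shKSR1 #2, against 55.6 with shCTRL and 64.7 in untransfected cells, without overlap. The difference was 0.37 (SE 0.11, adjusted p = 0.67), or 1.29-fold. It rests on 1 probe set. The other 4 ERAP1 probe sets were below the filter, with intensities from 8.93 to 34.9, and their differences were -0.12, 0.05, 0.10 and 0.01 from the brightest to the dimmest. The one at 0.10 separated the sides and the other 3 did not. ERAP2 was level and under the filter on all 5 of its probe sets. Its brightest gave 41.3 and 42.9 with shKSR1 #1 and #2, 42.9 with shCTRL and 41.5 in untransfected cells.

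NLRC5 is the coactivator that drives transcription of class I heavy chains, B2M and other genes of the pathway. Its intensity was 46.1 with shKSR1 #1 and 87.4 with shKSR1 #2, against 38.3 with shCTRL and 48.4 in untransfected cells. Only shKSR1 #2 was above the array medians, and shKSR1 #1 lay between shCTRL and untransfected cells. The difference over both hairpins was 0.44 (SE 0.27, adjusted p = 0.69). Without shKSR1 #2 it was 0.072 and without shKSR1 #1 it was 0.81, so the value is decided by 1 array.

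**Figure D2:**
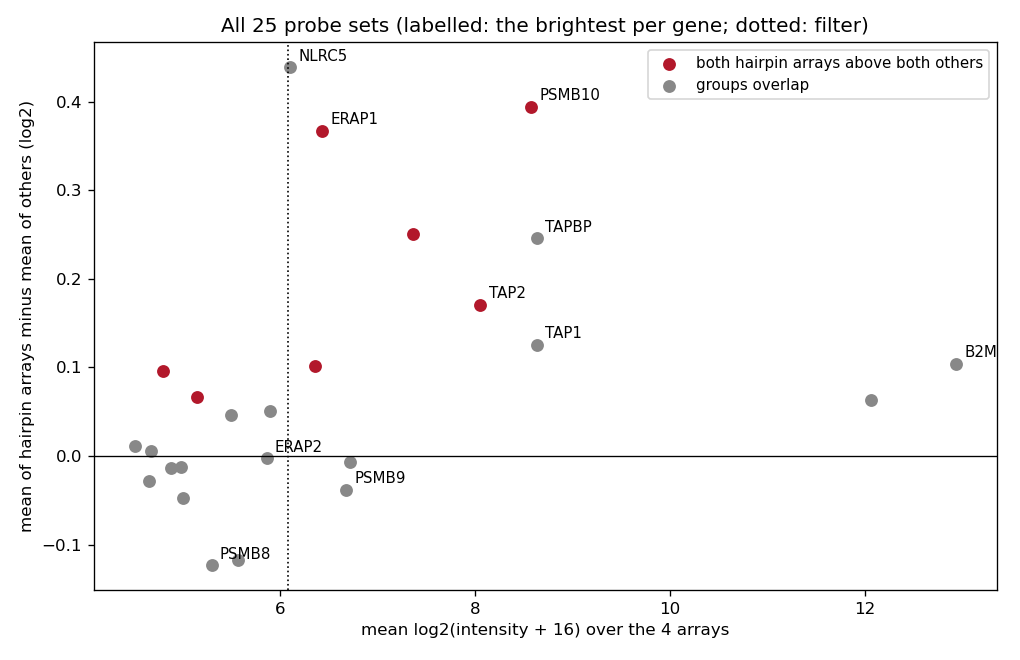
All 25 probe sets by mean log2(intensity + 16) over the 4 arrays (x axis) and by the mean of both hairpin arrays minus the mean of both others (y axis, log2 units), with the brightest of each gene named and a dotted line at the filter of 6.08. Of the 12 probe sets right of the line, 5 have both hairpin arrays above both others (red) and 0 have both below.

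Counted by probe set, 7 of the 25 had both hairpin arrays above both others and 0 had both below, against 17.3% and 21.6% of all probe sets. Of the 12 above the filter the counts were 5 and 0, against 22.8% and 17.6% of all probe sets above it. Of those 5, 3 belong to TAP2 and therefore read the same transcript. The largest upward differences belonged to the brightest probe sets of NLRC5, PSMB10 and ERAP1. That of NLRC5 is among the 12 above the filter only through shKSR1 #2, so nothing is read from its place.

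Each hairpin was also set against shCTRL alone, by a size rule of 0.5 log2 units (1.41-fold). These comparisons share the shCTRL array. With shKSR1 #1, PSMB10 was past the rule (0.55), 1 of 8 genes, against 4.46% of all genes analysed. With shKSR1 #2, NLRC5 was past it (0.93), where 9.34% of all genes were. As NLRC5 was analysed only through its shKSR1 #2 signal, nothing is read from that count, and of the other 7 genes 0 were past the rule. ERAP1 lay just under the rule, at 0.44 with shKSR1 #1 and 0.47 with shKSR1 #2. The 500 genes nearest to ERAP1 in brightness had SDs of 0.21 and 0.41 for these differences. Relative to its SD the shKSR1 #1 value was thus the larger, and the shKSR1 #2 value is close to 1 SD. No gene of the 8 reached 1 log2 unit in either comparison, against 0.545% and 1.90% of all genes for shKSR1 #1 and #2. Without filtering out dim genes the counts were the same, but the shares of all genes were not computed there.

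**Figure D3:**
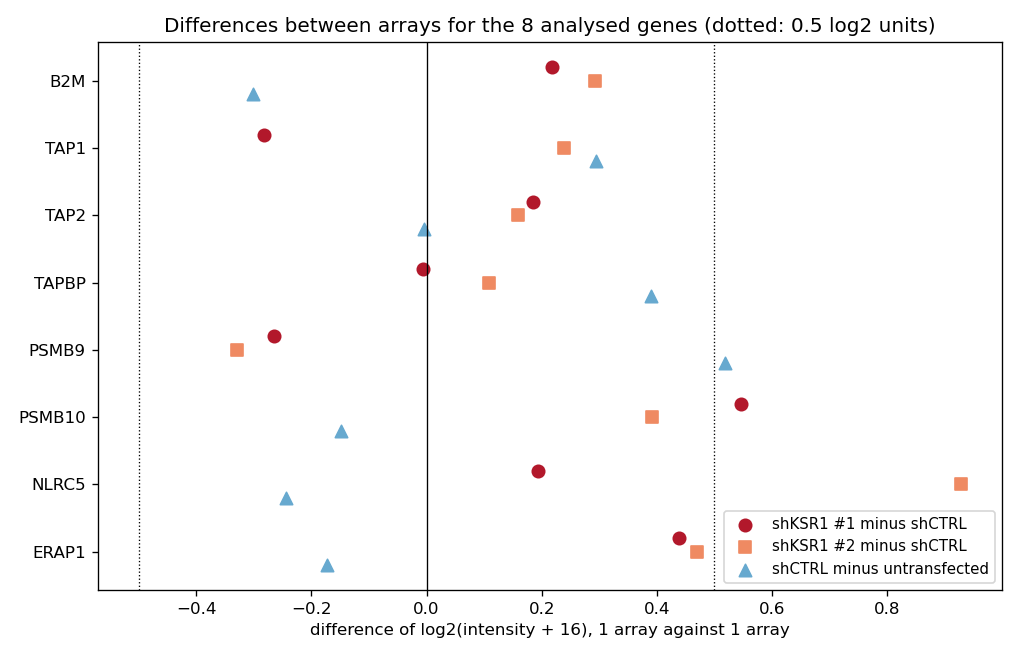
Differences of log2(intensity + 16) between single arrays for the 8 analysed genes, with circles for shKSR1 #1 minus shCTRL, squares for shKSR1 #2 minus shCTRL and triangles for shCTRL minus untransfected, and dotted lines at 0.5 log2 units. TAP1 has its circle at -0.28 and its square at 0.24, PSMB9 has both left of 0, and NLRC5 has its square at 0.93.

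The hairpin arrays, 1 for each line, lay farthest from each other in TAP1 and NLRC5. NLRC5 was 0.73 and TAP1 0.52 log2 units higher with shKSR1 #2 than with shKSR1 #1, and both passed the rule of 0.5, as did 7.68% of all genes. Leaving aside NLRC5, whose place among the genes analysed rests on shKSR1 #2, the count was 1 of 7. The nearest genes in brightness had SDs of 0.32 for this difference at the level of either gene. For the other 6 genes shKSR1 #2 minus shKSR1 #1 lay between -0.16 for PSMB10 and 0.12 for TAPBP. Against untransfected cells, 0 of 8 genes passed the rule with shKSR1 #1, where 6.06% of all genes did. With shKSR1 #2 TAP1 (0.53) was the 1 gene to pass it among the 7 other than NLRC5, against 10.4% of all genes. NLRC5 was at 0.68, and TAPBP reached 0.50 but stayed just under.

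The lines without a KSR1 hairpin were compared to show how far these genes differ in its absence. In shCTRL relative to untransfected cells PSMB9 was 0.52, TAPBP 0.39 and TAP1 0.29 log2 units higher, while B2M (-0.30), NLRC5 (-0.24), ERAP1 (-0.17) and PSMB10 (-0.15) were lower. TAP2 differed by less than 0.01. By the rule of 0.5, 1 of 8 genes was past it, against 5.75% of all genes. These steps are as large as several of the hairpin differences. For TAPBP, PSMB9, TAP1 and B2M the difference of shCTRL and untransfected cells was larger in size than that of hairpin arrays and others. The first is between single arrays and the second between means over both arrays of each side, so the first is expected to vary more.

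Other genes of the pathway were examined as whole lists, and none of their members passed limma. Their counts of genes above or below on both hairpin arrays are to be read against the 22.5% and 18.4% of all genes given above. The class I heavy chains pair with B2M to form the presented molecule. Their 5 measured genes, HLA-B, HLA-C, HLA-E, HLA-F and HLA-G, were all analysed, with 0 above and 1 below on both hairpin arrays and a median of -0.10. HLA-B was at 2758 and 3669 with shKSR1 #1 and #2, 3621 with shCTRL and 3234 in untransfected cells. All 5 were lower with shKSR1 #1 than with shCTRL, with a median of -0.29, while the median for shKSR1 #2 was 0.02. HLA-G, at -0.17 (SE 0.12), was the gene below on both hairpin arrays. Heavy chain genes are near-identical in sequence, so these probe sets may read several of them.

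The proteasome list includes the standard subunits that the immunoproteasome replaces. It had 4 of 9 genes higher with both hairpins and 0 lower, against 22.5% and 18.4% of all genes, and a median of 0.09. The same shares of all genes stand beside the counts of the next lists. PSME3, a proteasome activator subunit, had the largest difference at 0.33 (SE 0.11). The standard catalytic subunits, shown as counterparts of PSMB8, PSMB9 and PSMB10, were PSMB5 at 0.13, PSMB6 at 0.10 and PSMB7 at 0.06, and all 3 overlapped between the sides. Loading factors and chaperones had 3 of 6 higher and 0 lower with a median of 0.20, among them the chaperone HSPA5 (0.31) and the translocon subunit SEC61B (0.22), while PDIA3, a member of the loading complex, was at -0.19. Other peptidases had 1 of 6 higher, 0 lower and a median of 0.02.

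Regulators of class I genes had 4 of 20 higher and 2 lower with both hairpins, and a median of 0.06, so the upward share did not exceed that of all genes. The kinase JAK1 was at 0.43 (SE 0.22), the interferon receptor chain IFNAR1 at 0.34 and RFXANK, a subunit of the RFX complex, at 0.33. IRF9, a subunit of the interferon-induced ISGF3 complex, had intensities of 209 with shKSR1 #1 and 555 with shKSR1 #2, against 289 with shCTRL and 221 in untransfected cells. It was highest with shKSR1 #2 and lowest with shKSR1 #1, as were HLA-B and the epithelial marker KRT8.

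Several interferon-stimulated genes were highest with shKSR1 #2. Of 25 measured 13 were analysed, 3 higher and 2 lower with both hairpins, with a median of 0.16, which are shares near those of all genes. Between shKSR1 #2 and shKSR1 #1, 7 of these 13 were at least 0.5 log2 units higher and 0 lower, against 4.62% and 3.06% of all genes. IFI27 and IFIT1 passed the filter only through shKSR1 #2, and of the other 11 genes 5 were higher and 0 lower by that rule. In the comparison of both hairpin arrays with both others, these 11 genes had 2 higher and a median of 0.10. IFI27 was at 34.3 with shKSR1 #1 and 350 with shKSR1 #2, against 35.6 with shCTRL and 45.7 in untransfected cells. IFIT1, which binds viral RNA, was at 60.1 with shKSR1 #1 and 199 with shKSR1 #2, against 39.1 with shCTRL and 40.0 in untransfected cells. The RNA sensor IFIH1 was at 98.2 and 216 with shKSR1 #1 and #2, against 79.6 with shCTRL and 84.0 in untransfected cells. IFITM1 was at 72.3 and 93.2 with shKSR1 #1 and #2, against 131 with shCTRL and 98.8 in untransfected cells. It was 1 of the 2 genes lower with both hairpins, though it was higher with shKSR1 #2 than with shKSR1 #1. IFITM1 was chosen here after its values were seen.

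**Figure D4:**
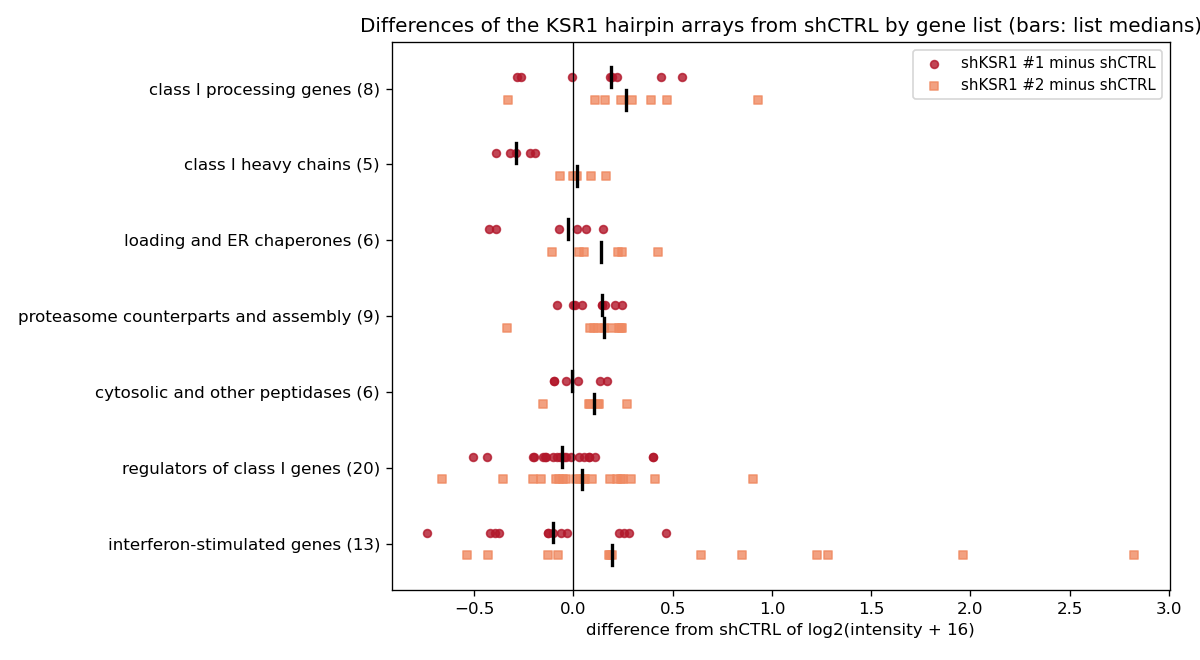
Difference of log2(intensity + 16) from shCTRL for each analysed gene of the list, with circles for shKSR1 #1 and squares for shKSR1 #2, black bars at list medians and the number of genes in brackets. The class I processing genes have medians of 0.19 and 0.27 with shKSR1 #1 and #2, and IFI27 is the square farthest right, at 2.83. NLRC5, which is among the class I processing genes, and IFI27 passed the filter only through shKSR1 #2. Nothing is therefore read from the median of 0.27 or from that square.

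Genes with the most similar profile over the 4 arrays were looked up for TAP1, PSMB9 and B2M, among genes whose range was at least that of the gene in question. Likeness was the root mean square difference of log2 values centred over the 4 arrays. Nearest to TAP1 were RABEP2 (0.010), RHOV (0.021) and DTX3L (0.022), among 2179 candidates. Nearest to PSMB9 were RTN4RL2 (0.026), PHC1 (0.027) and LYL1 (0.030), among 2311. Nearest to B2M were TFAP2E (0.0098), INPP1 (0.016) and the proteasome subunit PSMD3 (0.017), among 6103. With 4 arrays and so many candidates, close profiles are found for many genes.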

How the data were processed

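The authors deposited linear intensity values, 1 per probe set and array, ranging from 4.72 to 26251. The sources used here do not state their background correction, summary or normalization. Values were used without further scaling and converted to log2(intensity + 16). Gene names came from the annotation of the array platform, which gave 1 symbol to 41097 probe sets, several to 1801 and none to 11777. Symbols were checked by gene identifier against RefSeq (GRCh38.p14), matching 41043.

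A gene took its probe set with the highest mean. Both hairpin arrays were compared with both others by limma 3.58.1 (lmFit, eBayes, R 4.3.3), adjusted over 12468 genes with a threshold of 0.05. Single arrays were compared by size only, without p-values. Precision is limited by the number of arrays.

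All 10 members are named. Items withheld here are not reported. From each other list up to 4 genes with the largest hairpin difference could be named. HLA-C, PSMB7, IFITM1, EPCAM and some other cell type markers fall outside this rule and were chosen after their values were seen. Members and lists were chosen with earlier results of these data known. MHC class II genes (5 analysed, median -0.05), fibroblast (3, median -0.11) and endothelial markers (1, at -0.16) were also tabulated. Alternatives covered filters, pseudocounts, normalization, probe set choice and leaving out each array.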

Additional observations from a re-analysis of the deposited data

Results flagged for a closer look

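TAP1 differed in opposite directions between the KSR1 hairpins when each was set against shCTRL. It was -0.28 log2 units with shKSR1 #1 and 0.24 with shKSR1 #2, a distance of 0.52, and both sizes exceeded the medians of absolute differences over all genes analysed (0.14 and 0.15). Each side is 1 array and both share the shCTRL array, so the difference between the hairpins was not tested.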

How the results depend on the processing

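The limma comparison called 0 genes under every one of the 12 alternatives, with smallest adjusted p-values from 0.0996 to 0.914. TAP2, TAPBP, PSMB10, NLRC5 and ERAP1 kept a positive hairpin difference under every alternative that gave them a value. There were 9 such alternatives for ERAP1, 11 for NLRC5 and 12 for each of the others. NLRC5 passed the filter only through its signal with shKSR1 #2, a hairpin array, which favours a positive difference. Nothing is therefore read from its sign. ERAP1 fell under the filter with a mean log2 value of at least 7 and with a mean over probe sets. It did so too without probe sets that can match several transcripts, where its brightest remaining probe set had a difference of -0.12. The sign of ERAP1 is therefore not shown to hold under other choices of probe set. PSMB10 ranged from 0.32 to 0.47, ERAP1 from 0.24 to 0.45, TAP2 from 0.12 to 0.19, TAPBP from 0.051 to 0.44 and NLRC5 from 0.072 to 0.81. Leaving out single arrays turned the sign of TAP1 (-0.14 without shKSR1 #2, -0.022 without untransfected cells, range -0.14 to 0.39), B2M (-0.046 without shCTRL, range -0.046 to 0.25) and PSMB9 (0.22 without shCTRL, range -0.30 to 0.22). The number of genes with every remaining hairpin array above every remaining other array was 6 without shKSR1 #1 and 3 without shKSR1 #2. It was 6 without shCTRL and 5 without untransfected cells. The shares of all genes were 39.5%, 36.4%, 39.7% and 35.8% in that order. NLRC5 is among the 6 without shKSR1 #1 and the 5 without untransfected cells. As it was analysed only through shKSR1 #2, nothing is read from those counts. Genes below numbered 0, 0, 1 and 1 in the same order of arrays left out. No share of all genes below was computed for these settings, so nothing is read from the counts below. With 3 arrays fewer conditions have to be met. The median over the genes, with NLRC5 included wherever it passed the filter, stayed between 0.12 and 0.31.

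Counts by the rule of 0.5 log2 units moved with the scale. With a mean log2 value of at least 7 they were 0 for shKSR1 #2 minus shCTRL, 0 for shCTRL minus untransfected and 1 for shKSR1 #2 minus shKSR1 #1, because fewer genes were tested. With a pseudocount of 1 they were 2 for either hairpin minus shCTRL, and NLRC5 was 1 of those for shKSR1 #2. With a pseudocount of 64 they were 0 for shKSR1 #1 minus shCTRL, 0 for shCTRL minus untransfected and 0 for shKSR1 #2 minus shKSR1 #1. Without probe sets that can match several transcripts the last count was 1. The share of all genes past the rule was not computed for these settings, so nothing is read from these counts. Single-array comparisons have no leave-one-out value. No paired analysis was possible because each group has 1 array. Dim probe sets, PSMB8, ERAP2 and NLRC5 among them, are limited by signal over background.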
